A study of Mus musculus with 22 samples.

Results

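Among 114430 tiles of 100 bp that were measured by reduced representation bisulfite sequencing in mouse forebrain, 4356 (3.81%) lay between genes, at least 50 kb from any transcription start site (TSS), and were methylated at 80% or more in control embryos. A tile was taken as intergenic when it touched no gene of the RefSeq annotation of GRCm38, predicted genes and pseudogenes included. It needed at least 2 CpGs with 10 or more reads in at least 5 samples of each condition on chromosomes 1 to 19. The tiles were selected on measured values, namely the coverage-weighted control level, so their high level in controls is a description and no finding.

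The forebrains came from C57BL/6 wild type embryos at E10.5, with 1 embryo in each library. The 6 control embryos came from females injected with saline, and the 16 EtOH-exposed embryos from females injected at E2.5 with 2 doses of 2.5 g/kg ethanol given 2 h apart. The authors picked them at random among embryos of like size that showed no visible defects, so exposed embryos with defects are not represented. The methods name 3 control litters and 6 EtOH-exposed litters without tying embryos to them, so some embryos share a litter and p-values measure the spread between embryos only. Male and female embryos were present in both groups and were not told apart here.

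Methylated CpGs far from genes are the usual state of the mammalian genome. DNMT3A and DNMT3B lay the mark down after implantation, and DNMT1 with its partner UHRF1 copies it to the new strand at each cell division. Methylated cytosines tend to mutate to thymine over evolutionary time, which leaves such sequence poor in CpGs, and much of what remains CpG-rich there belongs to repeats that methylation helps to keep silent. MspI cuts at CCGG, so the assay sees intergenic DNA only where such sites lie close together.

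The sequences of 9 tiles show what these loci look like. All are the forward strand of GRCm38 with every CpG in capitals. The first group holds the tiles with most CpGs among the 592 tiles (13.6%) that were measured in all 22 samples, near Celf2, which encodes an RNA-binding protein, and the predicted genes Gm33042 and Gm24686.
chr2:7587001-7587100: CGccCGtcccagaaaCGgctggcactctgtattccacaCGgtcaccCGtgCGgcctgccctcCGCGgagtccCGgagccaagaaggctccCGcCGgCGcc
chr1:114557701-114557800: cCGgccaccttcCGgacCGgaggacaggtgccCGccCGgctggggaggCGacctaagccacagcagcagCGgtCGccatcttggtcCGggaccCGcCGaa
chr5:6230401-6230500: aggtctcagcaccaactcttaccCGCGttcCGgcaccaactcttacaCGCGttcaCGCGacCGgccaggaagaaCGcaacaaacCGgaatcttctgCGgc
The next sequence, nearest to Diras2, which encodes a small Ras-family GTPase, is among those whose level varied least between exposed embryos.
chr13:52393601-52393700: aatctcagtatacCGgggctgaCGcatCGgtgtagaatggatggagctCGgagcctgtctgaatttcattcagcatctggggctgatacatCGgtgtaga
The next 3 varied most, and the first pair of them are neighbours.
chr1:124972201-124972300: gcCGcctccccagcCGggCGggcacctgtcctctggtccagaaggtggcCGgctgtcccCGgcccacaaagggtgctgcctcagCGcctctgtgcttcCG
chr1:124972301-124972400: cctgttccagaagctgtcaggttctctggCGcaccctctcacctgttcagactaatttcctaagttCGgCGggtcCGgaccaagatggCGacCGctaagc
chr8:17948301-17948400: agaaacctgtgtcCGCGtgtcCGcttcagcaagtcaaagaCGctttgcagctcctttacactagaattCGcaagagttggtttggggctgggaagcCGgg
The last pair had the largest coverage-weighted differences between groups, and the first of them is nearest to Rorb, which encodes a nuclear receptor of brain and retina.
chr19:18902601-18902700: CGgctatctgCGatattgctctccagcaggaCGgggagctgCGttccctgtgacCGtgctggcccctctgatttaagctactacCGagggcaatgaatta
chr15:41244601-41244700: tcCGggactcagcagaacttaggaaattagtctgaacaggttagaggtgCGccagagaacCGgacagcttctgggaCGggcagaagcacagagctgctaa

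The tiles were mostly repeated sequence. At least 50 of the 100 bases were soft-masked as repeats in the reference in 74.4% of them, against 29.1% of the 14241 intron tiles with the same criteria and control level, 50.2% of the 11629 such intergenic tiles under 50 kb from a TSS, and 12.8% of all analysed tiles. No base was masked in 14.9%. The central 31 bases occurred once in the genome in 2057 tiles (47.2%) and at least 100 times in 24.98%. Whether reads at repeated tiles came from other copies was not tested. A run of 25 bases was shared with another of the 4356 tiles, on either strand, by 3096 (71.1%).

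The most widespread such run with a CpG was held by 174 tiles on 19 chromosomes, and the next run, in tiles not yet counted, by 127 on 19 chromosomes. Both are shown as the sequences that most tiles had in common.
first run: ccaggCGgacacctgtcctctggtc
second run: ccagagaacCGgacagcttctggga
The 174 tiles with the first run averaged 94.8% ± 0.367 in the controls (SD, n = 6) and 93.1% ± 1.68 in the EtOH-exposed embryos (SD, n = 16). The 127 tiles with the second averaged 94.1% ± 0.577 and 93.3% ± 1.05. One more run, held by a further 102 tiles, averaged 94.1% ± 0.407 and 91.4% ± 2.79. The second run stands in the chr15 tile shown above, and that tile has 27 bases in common with the one at chr1:124972301-124972400.

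Distance to the nearest TSS had a median of 93592 bp and reached 732853 bp, and 2326 tiles (53.4%) lay within 100 kb. The farthest 3 tiles stood together on chromosome 19, where the pseudogene Gm6975 had the nearest TSS. Grouped at gaps of up to 1000 bp, the 4356 tiles formed 2979 loci, of which 1946 held a single tile and the largest held 7. The middle of the tile lay in an MspI fragment of 40 to 300 bp in 80.8% of cases. Methylated sequence was the rule at this distance, since 4356 of the 4886 analysed tiles there (89.2%) reached 80%, 370 (7.57%) lay at 20 to 80% and 160 (3.27%) under 20%. Of all analysed tiles, 36.8% reached 80%.

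Depth differed between libraries. A control library held between 68126469 and 132488556 calls summed over positions, and an exposed library between 89179413 and 216223892. Between 57.7 and 99.9% of the 4356 tiles were measured in a control and between 69.5 and 97.7% in an EtOH-exposed sample, with a median of 111 to 361 reads per tile in controls and 111 to 383 in EtOH-exposed samples. The reads of a tile are summed over its CpGs and strands, so a read that spans several CpGs counts at each. At the overall median of 214 reads counted so, a level of 93.5% has a 95% Wilson interval of 89.3 to 96.1%. This interval covers counting error only. It takes the counts as independent and PCR copies were not told apart, so it is too narrow. The level at 39343 unmethylated tiles split the samples into groups when an increase of over 1.3 times to the next sample was taken as a break. All 6 controls and 7 EtOH-exposed samples formed 1 group at 0.672 to 1.52%. EtOH-exposed 4, 5 and 6 formed another at 2.41 to 2.54%, and the remaining 6 EtOH-exposed samples a group at 0.260 to 0.313%. With a smaller break the group of the controls split further. Controls 3 to 6 then stood with no exposed sample, and controls 1 and 2 with EtOH-exposed 8 only. Coverage of other methylated tiles (80% or more) over that of tiles at 20% or less, on a log2 scale with the control mean at 0, ran from -0.815 to 0.383 in controls and from -2.08 to 0.0608 in EtOH-exposed samples, a difference of -0.932 (exact permutation test, two-sided p = 0.0127).

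The question was whether methylation at these tiles differed after exposure. One value was formed for each embryo. For each control the tiles were chosen by the other 5 controls, and for each exposed embryo the value was averaged over these 6 choices, so that no control value had taken part in its own selection. The mean level in control embryos 1 to 6 was 92.4, 93.1, 92.1, 92.8, 92.7 and 91.3%. In the 16 EtOH-exposed embryos the lowest value was 87.5%, the median 91.5% and the highest 92.8%. The groups overlapped, with 7 of 16 exposed embryos below the lowest control and none above the highest. The control mean was 92.4% ± 0.652 (SD, n = 6) and the exposed mean 90.7% ± 1.94 (SD, n = 16), a difference of -1.70 percentage points (exact permutation test, two-sided p = 0.0457, adjusted p = 0.179 over the 9 comparisons made). The exposed embryos thus had the lower mean, and the difference did not pass after adjustment. Within the library group that holds all controls it was -0.460 points (n = 6 and 7, exact permutation p = 0.279), and without EtOH-exposed 4, 5 and 6 it was -1.04 points (exact permutation p = 0.111).

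**Figure D1:**
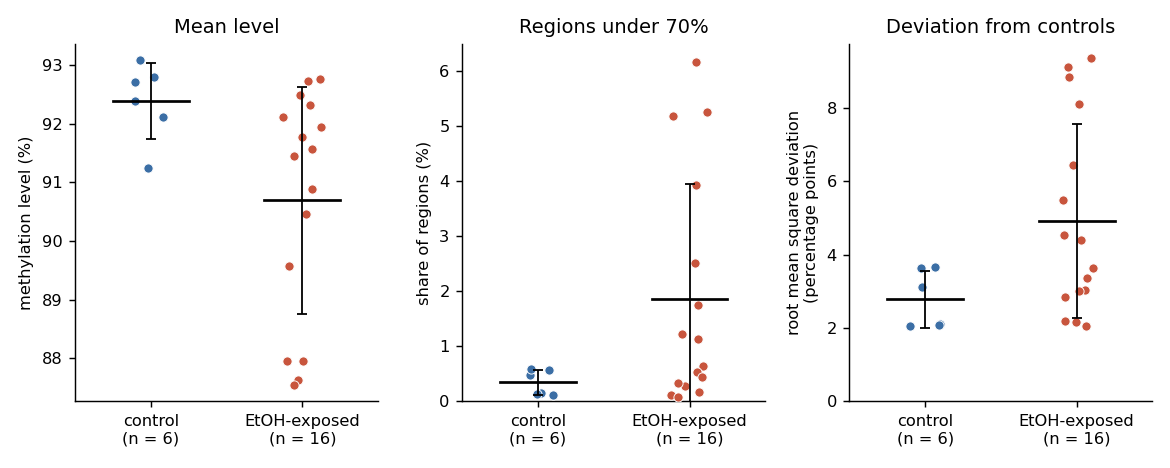
Mean methylation level (%), share of tiles under 70% (%) and root mean square deviation from the controls (percentage points) at the methylated intergenic tiles far from genes, with 1 point for each embryo and the mean and SD in black (the lower SD bar of the exposed group is cut at 0 in the middle panel). The exposed embryos spread from 87.5 to 92.8% in level, and 4 of them lie under 88% while the controls lie between 91.3 and 93.1%.

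Tiles under 70% were rare. Their share was 0.115 to 0.595% in the controls, and in the exposed embryos the lowest was 0.0822%, the median 0.886% and the highest 6.16%. Controls averaged 0.344% ± 0.229 (SD, n = 6) and exposed embryos 1.86% ± 2.09 (SD, n = 16), with a two-sided exact permutation p = 0.0797 (adjusted p = 0.179). The difference of 1.51 points was 0.48 within the controls' library group (n = 6 and 7, exact permutation p = 0.165). Without EtOH-exposed 4, 5 and 6 it was 0.67 points (exact permutation p = 0.174). Of the 59446 tile values in exposed embryos 976 were under 70%, and EtOH-exposed 4, 5 and 6 held 517 of them, EtOH-exposed 14 held 131 and the other 12 embryos held 328. In the controls 54 of 22894 values were that low. Low values were thinly covered, at a median of 57 reads against 211 over all exposed values. They were also scattered over tiles, as 597 tiles (13.7%) were under 70% in at least 1 exposed embryo, 406 in exactly 1, 101 in at least 3 and 22 in at least 5. In all, 3731 tiles (85.7%) were under 70% in none of the 22 samples.

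The deviation of an embryo from the controls over the tiles, with the binomial counting variance removed, was 2.06 to 3.66 percentage points in the controls. Any shift in an embryo's mean level is contained in this measure, so it is not separate from the level. In the exposed embryos the lowest was 2.04, the median 4.02 and the highest 9.37 points. Controls averaged 2.78 ± 0.783 points (SD, n = 6) and exposed embryos 4.91 ± 2.64 (SD, n = 16), with a two-sided exact permutation p = 0.0658 (adjusted p = 0.179). The difference of 2.13 points was 0.94 within the controls' library group (n = 6 and 7, exact permutation p = 0.177). Without EtOH-exposed 4, 5 and 6 it was 1.16 points (exact permutation p = 0.153). Tile by tile, the SD between embryos had a median of 2.35 points in controls, where binomial counting gives 2.03. It was 3.81 points in EtOH-exposed embryos, where binomial counting gives 2.30. The binomial values take the CpGs of a read as independent, so counting error can be larger and part of it can remain in the deviation. The SD was the larger of both in the exposed group at 3399 tiles (78.0%), a share that was 77.5% over all analysed tiles.

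Level moved with library coverage of methylated DNA in the exposed embryos. Across the 16 exposed embryos the mean level at the tiles rose with that coverage, which was measured on other tiles (Pearson's r = 0.909, permutation p = 1e-05, the smallest that 100000 permutations can give, adjusted p = 4e-05 over 12 relations; Spearman's rho = 0.900, permutation p = 2e-05). Without the 2 samples farthest from the median coverage r was 0.869. It was 0.871 in the 7 exposed embryos of the controls' library group (exact permutation p = 0.021) and 0.898 in the 6 with the lowest level at unmethylated tiles (exact permutation p = 0.015). Spearman's rho in these groups was 0.571 (exact permutation p = 0.20) and 1 (exact permutation p = 0.0028). The deviation, which contains any drop in level, went the other way, with r = -0.903 over the 16 embryos (permutation p = 1e-05). Within the groups of 7 and 6 its r was -0.965 and -0.926 (exact permutation p = 0.0012 and 0.0014). The share under 70% had r = -0.833 over the 16 (permutation p = 2e-05). With the coverage as a covariate the difference in level between the groups was 0.12 points (permutation p = 0.832). That fit uses 1 slope for both groups, while 8 of the 16 exposed samples had a coverage below the lowest control. Among the controls the order was not the same. Control 2 had the lowest coverage (-0.815) and the highest level (93.1%), and control 6 the highest coverage (0.383) and the lowest level (91.3%).

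**Figure D2:**
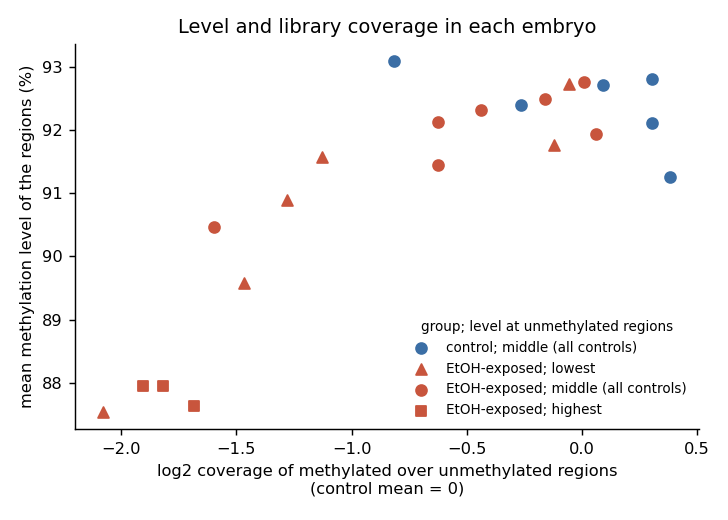
Mean methylation level (%) of the tiles in each embryo against the log2 coverage of other methylated over unmethylated tiles in its library (control mean at 0), with colour for the group and the marker for the library group by the level at unmethylated tiles. The 4 exposed embryos under 88% have a log2 coverage of -1.69 or less, and the controls lie at -0.815 or more.

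Among the 4356 tiles those with more CpGs were more methylated. In the controls, whose values took part in the choice, the median tile level rose from 91.4% at 2 CpGs (713 tiles) through 92.8% at 3 and 93.6% at 4 to 94.6% at 6 and 94.8% at 8 (220 tiles). The choice did not use the values of the exposed embryos, but these were scored at the same chosen tiles. In the exposed embryos the mean level was 88.3% ± 2.84 at 2 CpGs and 89.9% ± 2.35 at 3. It was 91.0% ± 1.75 at 4, 91.8% ± 1.504 at 5 and 92.1% ± 1.52 at 6 (SD, n = 16). Beyond 6 CpGs it levelled off, with 92.0% ± 1.36 at 8 and 91.4% ± 1.33 at 9 or more. Tiles with at least 4 CpGs exceeded those with 2 or 3 in all 16 exposed embryos, by 2.44 points ± 1.298 (exact sign-flip permutation test, two-sided p = 3.1e-05, the smallest that 16 embryos allow). Every embryo was scored at the same tiles, so this p-value covers the spread between embryos and not that between tiles. The same limit applies to the contrasts by masking and distance below. With no limit on the control level, the contrast by CpG number was above 0 in 16 of 16 over all 4886 tiles at this distance. In unmasked tiles it then turned the other way, as given below. Reads per tile also rose, from a median of 157 at 2 CpGs to 315 at 8, while reads per CpG went from 78.5 to 58.5.

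**Figure D3:**
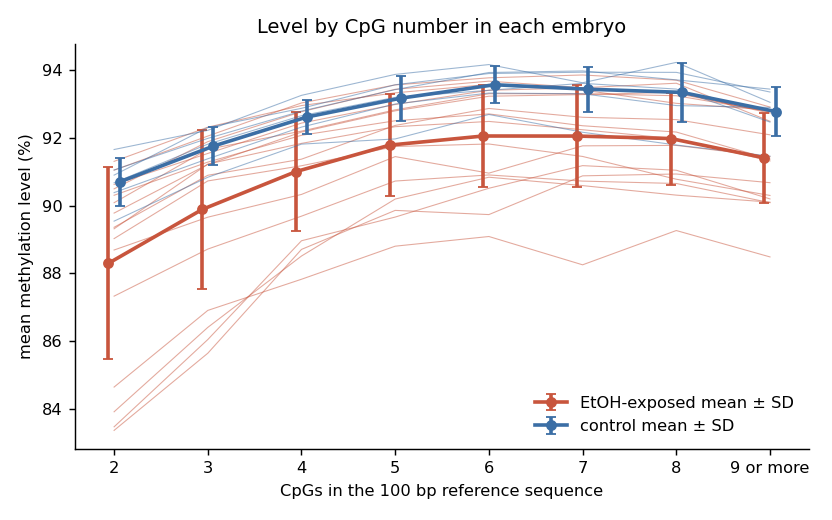
Mean methylation level (%) of the tiles by the number of CpGs in their reference sequence, with a thin line for each embryo and the mean and SD of each group in bold. Both group means rise from 2 to 6 CpGs, from 90.7 to 93.6% in the controls and from 88.3 to 92.1% in the exposed embryos, and 4 exposed embryos lie under 85% at 2 CpGs.

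Repeats followed the same order, since the share of tiles with at least 50 masked bases grew from 56.5% at 2 CpGs to 97.7% at 8. Among the selected tiles the gain with CpG number was 1.84 points ± 1.17 where at least 50 bases were masked and 1.69 points ± 0.771 where none was, above 0 in 16 of 16 exposed embryos in both (exact sign-flip permutation p = 3.1e-05 each). For unmasked sequence this held only above the limit of 80%. Of the unmasked tiles at this distance, 75.2% of those with 2 or 3 CpGs reached the limit and 58.6% of those with 4 or more, against 96.2 and 96.8% in tiles with at least 50 masked bases. Over all 952 unmasked tiles, with no limit on the control level, those with 4 or more CpGs were the less methylated in 16 of 16 exposed embryos, at -12.5 points ± 0.743 (exact sign-flip permutation p = 3.1e-05), and at -12.6 points ± 1.31 in the controls. Over the 3357 tiles with at least 50 masked bases the gain without the limit was 2.10 points ± 1.22. Tiles with at least 50 masked bases exceeded those with none in every exposed embryo, by 3.05 points ± 1.44 (exact sign-flip permutation p = 3.1e-05). At 250 kb or more from a TSS the level was 1.28 points ± 0.563 above that at 50 to 100 kb, again in 16 of 16 (exact sign-flip permutation p = 3.1e-05), and the share of tiles with at least 50 masked bases was 87.4% there and 68.1% at 50 to 100 kb. In the 31 tiles at 500 kb or more the exposed mean was 90.8% ± 1.62, below the 91.7% ± 1.70 at 250 to 500 kb (SD, n = 16). The control mean at 500 kb or more was 91.9%, against 92.2% at 50 to 100 kb. Without the limit, over all 4886 tiles at this distance from genes, the gap by masking was 21.1 points ± 2.83 and the gap by distance 8.29 points ± 1.35 (SD, n = 16), and both were thus smaller among the tiles above the limit.

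No difference between the groups in these contrasts passed the test. The contrast by CpG number was 1.81 points ± 0.0933 in controls (SD, n = 6) and 2.44 ± 1.298 in exposed embryos, a difference of 0.63 points (exact permutation p = 0.304, adjusted p = 0.384). EtOH-exposed 4, 5 and 6 stood apart with contrasts of 5.09, 5.16 and 4.62 points, and without them the difference was 0.045 points (exact permutation p = 0.776). For masked against unmasked tiles the difference between groups was 0.80 points (exact permutation p = 0.206, adjusted p = 0.370), and for the distance contrast 0.26 points (exact permutation p = 0.307, adjusted p = 0.384).

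CpGs inside CCGG sites behaved apart from their neighbours in the same tile. CCGG is where MspI cuts, so such CpGs can lie at the ends of fragments. Whether library preparation or read trimming affected their calls was not tested. In the controls the CpG of a CCGG was the more methylated, at 93.6% ± 0.407 against 92.0% ± 0.781 at the other CpGs (SD, n = 6). In the exposed embryos it was 90.5% ± 2.63 against 90.9% ± 1.56 (SD, n = 16). The contrast was 1.51, 0.54, 1.98, 1.75, 1.54 and 2.16 points in controls 1 to 6, and in the exposed embryos it ran from -2.31 through a median of -0.12 to 1.17 points. Of the 16 exposed embryos 12 were below every control and none was above the highest. The contrast differed by -1.996 points between the exposed and the control embryos (exact permutation test, two-sided p = 0.000804, adjusted p = 0.00724), the comparison among the 9 that passed after adjustment.

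The group difference was larger at the CCGG CpGs. Their level differed by -3.10 points between the groups (exact permutation p = 0.00942) and that of the other CpGs by -1.10 points (exact permutation p = 0.119), both chosen after the values were seen. The contrast also moved with library coverage across the 16 exposed embryos, with r = 0.915 (permutation p = 1e-05), with rho = 0.888 (permutation p = 3e-05) and with r = 0.896 without the 2 farthest samples. Within the library groups r was 0.872 (n = 7, exact permutation p = 0.015; 0.518 without the 2 farthest) and 0.923 (n = 6, exact permutation p = 0.0097). Spearman's rho there was 0.714, which did not pass (exact permutation p = 0.088), and 0.943 (exact permutation p = 0.017), and in the group of 7 the relation rests on the 2 farthest samples. Among the controls, control 2 had the lowest coverage (-0.815) and the lowest contrast (0.54 points). Control 6 had the highest of both (0.383 and 2.16 points). The relation within the controls was not tested. The difference between groups was -0.74 points with coverage as a covariate (permutation p = 0.00450) and -1.22 points within the controls' library group (n = 6 and 7, exact permutation p = 0.00816).

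**Figure D4:**
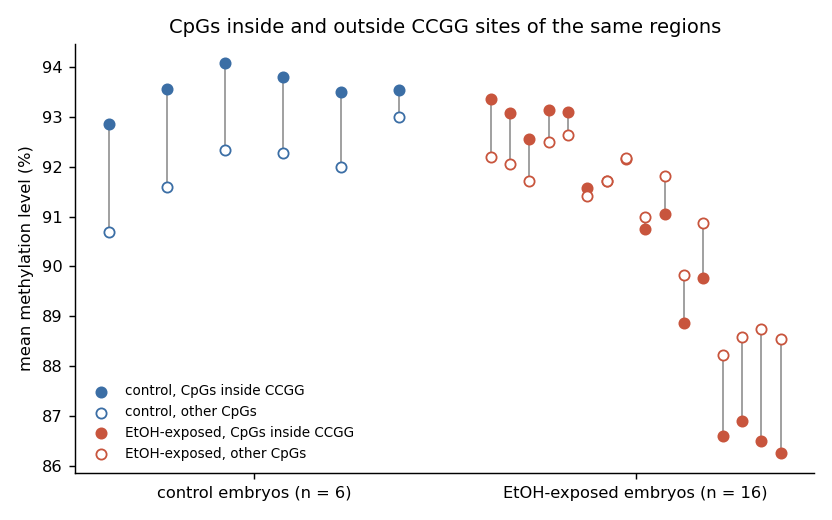
Mean methylation level (%) at CpGs inside CCGG sites (filled) and at the other CpGs (open) of the same tiles, with a grey line joining both values of an embryo and embryos ordered by the contrast within each group. Filled points lie above open ones in all 6 controls, and in 9 of 16 exposed embryos the filled point is the lower, by up to 2.31 points.

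The shift at CCGG was larger nearer to and inside genes unless library coverage was a covariate. In introns the contrast was 0.94 points ± 0.694 in controls and -1.95 ± 2.01 in exposed embryos, a difference of -2.90 points, and in intergenic tiles under 50 kb from a TSS the difference was -2.68 points. The difference at the tiles far from genes was smaller than in introns by 0.90 points (exact permutation p = 0.0292) and than in nearer intergenic tiles by 0.69 points (exact permutation p = 0.0185). Without EtOH-exposed 4, 5 and 6 these values were 0.52 points (exact permutation p = 0.0247) and 0.45 points (exact permutation p = 0.0216), and within the controls' library group 0.36 points (n = 6 and 7, exact permutation p = 0.0122) and 0.33 points (exact permutation p = 0.0105). With coverage as a covariate they were 0.017 points (permutation p = 0.953) and 0.029 points (permutation p = 0.860). All these tests were added after the contrast had been seen.

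By sequence around the CpG, ACGT was the least methylated of the 10 contexts, counted without regard to strand over 13737 CpGs. Its 256 CpGs averaged 87.9% ± 1.33 in controls and 86.9% ± 2.06 in exposed embryos. The 3807 CpGs in CCGG were the highest of all in controls, at 93.7% ± 0.401, and averaged 90.7% ± 2.67 in exposed embryos. The 3109 CpGs in CCGC or its complement, which differ from CCGG at 1 base, averaged 93.5% ± 0.476 and 92.3% ± 1.46. The 849 CpGs in GCGC averaged 91.5% ± 0.492 and 89.6% ± 2.21, and had the lowest mean after ACGT in exposed embryos. The contexts were not tested against each other.

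Methylated tiles elsewhere had their own difference in level between the groups, of -2.01 points in introns and -1.86 points in intergenic tiles under 50 kb from a TSS. The tiles far from genes exceeded intron tiles by 1.16 points ± 0.174 in controls (SD, n = 6) and by 1.47 ± 0.700 in exposed embryos (SD, n = 16), and the change in this gap was 0.31 points (exact permutation p = 0.342, adjusted p = 0.384), or -0.00091 points without EtOH-exposed 4, 5 and 6 (exact permutation p = 0.994) and -0.24 points with coverage as a covariate (permutation p = 0.371). Over nearer intergenic tiles the gap was 1.05 points ± 0.0818 and 1.22 ± 0.463, a change of 0.17 points (exact permutation p = 0.435, adjusted p = 0.435). A smaller or larger change at the tiles far from genes was therefore not detected.

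Few single tiles were called. A tile was called when a logistic test over all 114430 tiles gave a Benjamini-Hochberg q under 0.01 and the coverage-weighted difference was at least 10 points. Lower methylation in exposed embryos was called at 13 of the 4356 tiles (0.298%), against a background of 1.08% of all tiles, and higher methylation at none, against 0.0516%. Among the other methylated tiles the share called lower was 0.463% in introns and 0.490% in intergenic tiles under 50 kb from a TSS, while far tiles with a control level under 80% had 8.87%, and these shares were not compared by a test. This contrast shares its control values with the choice of tiles. The 13 were absent under an overdispersion F test and under limma, which called no tile of the 114430, and at an unadjusted p under 0.05 these tools kept 285 (6.54%) and 279 (6.405%) of the 4356 tiles, against 5.77 and 4.45% of all 114430. The median difference between groups was -0.80 points, with 3183 tiles (73.1%) lower and 4234 (97.2%) within 5 points either way. Among the 13 called tiles 9 had 2 or 3 CpGs, 7 held no masked base and 10 lay at 50 to 100 kb from a TSS, where 1665, 648 and 2326 of all 4356 tiles belonged, and these shares were not tested.

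The exposed embryos were spread widely at the 5 called tiles with the largest coverage-weighted differences. The tile near Rorb at chr19:18902601-18902700, 98417 bp from the TSS and with 6 CpGs, had levels from 74.8 to 90% in 5 controls. In the 8 exposed embryos with a value the lowest was 16.3%, the median 56.4% and the highest 86.5%. EtOH-exposed 5 and 6 were the lowest and 6 of 8 were below every control, with a coverage-weighted difference of -18.0 points.

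At chr15:41244601-41244700, whose sequence is masked throughout, the 5 controls lay between 93.9 and 100% and the 15 exposed embryos had a lowest value of 37.3%, a median of 89.1% and a highest of 98.0%. Here 14 of 15 were below every control, EtOH-exposed 11 and 14 by the most, and the difference was -16.8 points. At chr4:140478301-140478400, near Gm13021, the controls lay between 80.5 and 88.5% and the 9 exposed embryos between 45.5 and 90.3%, with a median of 75.4%. EtOH-exposed 4, 5, 6 and 11 were under 60%, EtOH-exposed 16 was below every control at 75.4%, and the other 4 were not below the controls.

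The central 31 bases of chr6:26066101-26066200, near Gm6719, occur 317 times in the genome. At this tile the controls lay between 93.9 and 97.3%, while the 13 exposed embryos ranged from 54.0 to 100% with a median of 97.2%. Only 4 of them were below the controls and 6 were above, so that the coverage-weighted difference of -14.7 points came with a difference in unweighted means of -7.7 points. At chr13:79973401-79973500, near Gm19320, control 3 was at 64% and the other 4 controls reached up to 89.5%. The 12 exposed embryos ranged from 13.6 to 85.8% with a median of 60.9%, and the lowest, EtOH-exposed 4, had only 22 reads. The difference in unweighted means at this tile, -22.9 points, was larger than the -14.4 points by coverage. No tile with higher methylation was called.

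Embryo spread differed widely between tiles measured in all 22 samples. The chr1:124972201-124972300 tile near Gm35355 ran from 76.5 to 86.6% in the controls and in the exposed embryos had a lowest value of 33.3%, a median of 71.2% and a highest of 88.8% (SD 16.6 points, n = 16). Its neighbour at chr1:124972301-124972400 ran from 81.0 to 91.2% in controls and from 30 to 91.7% in exposed embryos (SD 15.8 points). The central 31 bases occur 49 times in the genome for the first of this pair and 5750 times for the second. In both tiles EtOH-exposed 6 was among the 2 lowest, on 20 and 40 reads. The chr8:17948301-17948400 tile near the pseudogene Gm7724, which holds no masked base, ran from 81.8 to 93.0% and from 50.5 to 91.6% (SD 14.9 points), with EtOH-exposed 4, 5 and 6 lowest.

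At the other end, the chr13:52393601-52393700 tile near Diras2 ran from 91.9 to 97.4% in controls and from 94.3 to 96.9% in exposed embryos (SD 0.7 points, on 123 to 3941 reads). The tiles chr1:148081401-148081500 near Gm22966 and chr8:8905601-8905700 near Gm39127 had exposed ranges of 93.7 to 96.5% and 93.4 to 96.5%. These 3 were selected for that small spread.

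The 3 tiles with most CpGs were all masked and differed in level. The one near Celf2, with 12 CpGs, was at 73.4 to 88.0% in controls and had a lowest exposed value of 71.6%, a median of 77.3% and a highest of 83.4%, and only 1 exposed embryo was below the controls. The one near Gm33042, with 11 CpGs and a central sequence found 1907 times in the genome, was at 94.1 to 95.1% in controls and at 77.0 to 94.4% in exposed embryos, with a median of 91.4%. All but 1 of the 16 were below the lowest control there, EtOH-exposed 5, 6 and 14 by the most. The one near Gm24686 was at 93.9 to 96.97% in controls and at 91.3 to 99.8% in exposed embryos, and the groups overlapped.

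The farthest 3 tiles, 732553 to 732853 bp from a TSS and all masked, had control medians of 94.5, 91.7 and 95.4% and exposed medians of 94.3, 95.9 and 91.4%, with overlapping groups at each. In the same order, their central 31 bases occur 390, 68 and 427 times in the genome. The first of them, at chr19:48977201-48977300, has 37 bases in common with the low-spread tile near Gm22966.

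**Figure D5:**
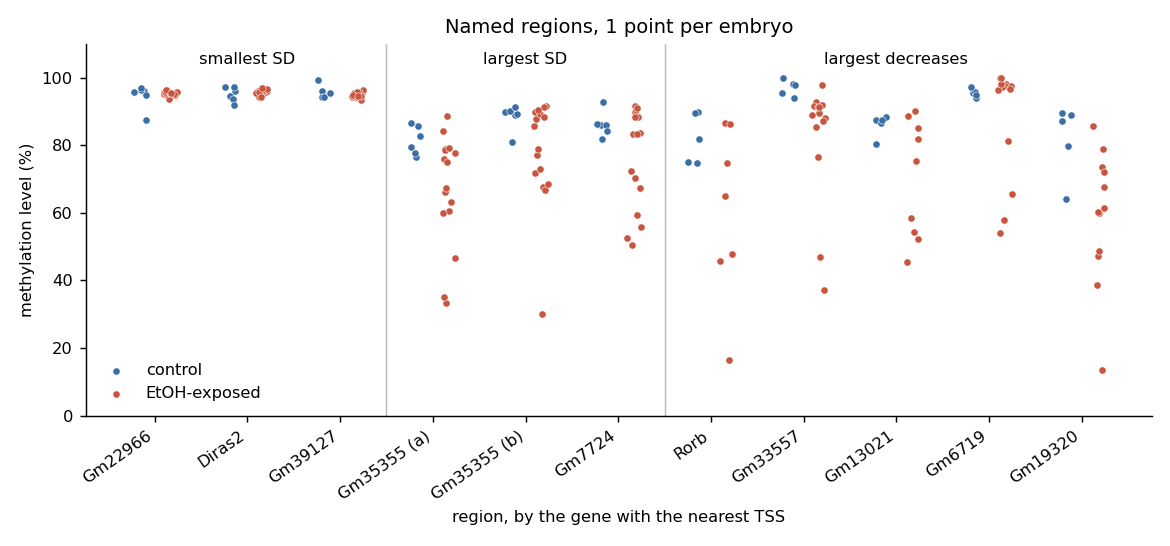
Methylation level (%) of 11 tiles, with 1 point for each embryo measured (blue for control, red for EtOH-exposed), for the 3 tiles with the smallest and the 3 with the largest SD over exposed embryos among tiles measured in all samples, and for the 5 largest called decreases, named by the gene with the nearest TSS. Exposed embryos reach down to 16.3% near Rorb and 13.6% near Gm19320 (on 22 reads) while others in the same group stay in the control range.

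Around the limit of 80%, the 2 tiles just inside were chr6:81349301-81349400, at a coverage-weighted 80.1% in controls and 83.6% in exposed embryos, and chr4:153098801-153098900, at 80.2 and 74.3%. The 2 just outside were chr4:140497401-140497500, at 79.95 and 73.2%, and chr16:63163401-63163500, at 79.9 and 77.5%.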

How the data were processed

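Methylation was measured by RRBS in 22 forebrain libraries of E10.5 embryos. The authors trimmed reads with Trim Galore 0.3.3, aligned them to mm10 with BSMAP 2.90 and deposited a table per sample. The deposited counts are the reads that covered each cytosine of a CpG on each strand, without normalization. The deposited percent values state how many of the reads carried a methylated or an unmethylated cytosine, to 1 decimal. Methylated reads were recovered as count times percent and rounded.

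Only CpGs covered by 10 or more reads on a strand were used, and they were summed into tiles of 100 bp with at least 2 CpGs. Genes, TSSs, masked bases and sequences came from RefSeq GRCm38, the build of mm10, and all 4915652 autosomal positions lay at a CpG of it. Distance was taken from the tile's nearest edge. Embryo values were compared by exact two-sided permutation over the 74613 assignments of 22 samples to 6 and 16, or by exact sign flips within the exposed group, and p-values of the 9 group comparisons were adjusted by Benjamini-Hochberg. Single tiles were tested by likelihood ratio from a binomial regression of their read counts on exposure, with an overdispersion F test and limma 3.58.1 in R 4.3.3 as alternatives. The tests of single tiles, the exact permutation test of group means and the sign-flip test were tried on simulated data. Named tiles were, among tiles measured in all samples, the 3 with most CpGs and the 3 with the smallest and the 3 with the largest exposed SD, and further the 5 largest called decreases, up to 3 called increases, 2 on either side of 80% and the 3 farthest from a TSS. The tiles and the comparisons were chosen with earlier results of these data known. No pair of libraries had equal coverage at more than 3.12% of positions. Python 3.11.15 with numpy 2.4.6 and scipy 1.17.1 was used.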

Additional observations from a re-analysis of the deposited data

Results flagged for a closer look

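The contrast between CpGs inside and outside CCGG sites differed between the groups, by -1.996 points in EtOH-exposed embryos relative to controls (exact permutation p = 0.000804, adjusted p = 0.00724). Library coverage of methylated tiles moved with this contrast across the exposed embryos and also differed between the groups, as given above. The difference in the contrast was -0.74 points with coverage as a covariate and -1.22 points within the controls' library group. Its cause was not tested.

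At 4 of the 21 named tiles 1 control stood far from the other controls by Dixon's gap test, which flags about 1 in 20 groups by chance. Control 6 was at 87.4% at chr1:148081401-148081500, where the next control was above 94%, and at 99.4% at chr8:8905601-8905700. Control 1 was at 81.0% at chr1:124972301-124972400, and control 5 at 80.5% at chr4:140478301-140478400. Control 6 had the fewest calls of all libraries, and the part of its depth in these values was not tested.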

How the results depend on the processing

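The CCGG contrast kept its direction and passed its test under the 6 alternatives tried for it and without each sample in turn. The 6 ranged from -0.74 points with the coverage covariate to -2.91 points with the replicate block. The block's exact sign-flip p of 0.0313 is the smallest it can give. Without each sample in turn the contrast was -2.24 to -1.87 points. Tiles measured in all 22 samples were not tried for this contrast. The difference in level of -1.70 points was -1.38 (p = 0.108) in tiles measured in all 22 samples, -1.14 without CCGG CpGs, -1.57 at 100 kb or more, -1.23 as a median, -1.03 weighted by reads, -1.43 with at least 3 CpGs, -1.73 with curated genes only, -0.46 within the controls' library group and -1.04 without EtOH-exposed 4, 5 and 6, with an exact permutation p of at least 0.05 in each. In tiles whose central 31 bases occur once in the genome it was -1.96 points (exact permutation p = 0.0446, not adjusted). Leaving out 1 sample gave -1.93 to -1.49 points, with an exact permutation p of 0.031 to 0.089, and 12 of the 22 omissions (controls 1 to 5 and EtOH-exposed 2, 4, 5, 6, 8, 9 and 14) took it past 0.05. The deviation passed the unadjusted threshold at a coverage minimum of 5 (2.78 points), in 3 omissions of 1 sample (range 1.84 to 2.34 points) and with tiles chosen by all 6 controls (3.19 points), where each control took part in the choice of its own tiles and the p lends no support.

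With library coverage as a covariate the sign turned for the level (0.12 points), the share under 70% (-0.41), the deviation (-0.55), the gap to introns (-0.24) and to nearer intergenic tiles (-0.18), and the contrasts by CpG number (-0.23), distance (-0.18) and masking (-0.19), none with a permutation p under 0.3. The gap to introns was -0.00091 points without EtOH-exposed 4, 5 and 6. The cause was not tested.

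The 13 called tiles became 0 with the overdispersion F test or limma. They also became 0 with a 20-point difference, which none of the 4356 tiles reached (-18.0 to 9.60 points). With tiles measured in all samples, of which 592 were left, the 13 became 0 too. They became 32 (0.735%) with unweighted means, 24 (0.551%) with reads scaled to at most 50, 35 (0.557%) and 4 (0.163%) at coverage minimums of 5 and 20, 1 (0.0351%) without CCGG CpGs, 31 (0.712%) within the controls' library group, 73 (1.68%) with the replicate block and 75 (1.722%) in the same samples without it. The shares of all tiles tested were, in the same order, 1.71, 0.927, 1.63, 0.726, 0.586, 1.05, 3.33 and 3.48%, each above that of the tiles far from genes. Leaving out 1 sample gave 9 to 21, the most without EtOH-exposed 1. With the replicate block (6 pairs, smallest p 0.0313) the level differed by -2.99 points (exact sign-flip p = 0.0313), as it did in the same samples without the block (exact permutation p = 0.00649), so the move came with the choice of samples. Samples with the same number deviated together with r of -0.150 to 0.173 and in no pair best with their own number, so the numbers do not pair them. Added after seeing the data were the library groups, the omission of EtOH-exposed 4, 5 and 6 together, curated genes, no limit on the control level, the covariate for the contrasts and the gap to nearer tiles, the block for the CpG number and CCGG contrasts, the block's samples without it, single omissions for the CCGG contrast, and the comparisons of that contrast with introns and nearer intergenic tiles.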
